A study of Mus musculus with 6 samples.

Results

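CDK1, the B-type and A-type cyclins that activate it, and the kinases and phosphatases that set its inhibitory phosphorylation were examined in mouse metaphase II (MII) oocytes. The 10 genes were taken by name and Ensembl identifier, not by their values: Cdk1, Ccnb1, Ccnb2, Ccnb3, Ccna2, Wee2, Pkmyt1, Cdc25a, Cdc25b and Cdc25c. All 10 were among the 60193 genes listed. Female ICR mice of 42-45 weeks, an advanced reproductive age, gave both groups, and both received pregnant mare's serum gonadotropin (PMSG). In the IVM group, germinal vesicle oocytes were stripped of cumulus cells and matured for 12 h in M16 medium. In the IVO group, oocytes matured in the animal and were collected 14 h after human chorionic gonadotropin (hCG). Each sample was a pool of 20 MII oocytes from 3 mice, with 3 samples per group, IVM1 to IVM3 and IVO1 to IVO3. The IVM oocytes therefore matured without cumulus cells and without hCG, so maturation site, cumulus contact and hCG cannot be told apart here. The same holds for the time of collection and for the removal of cumulus cells, by pipette in IVM and with hyaluronidase in IVO. No young mice were among the samples, so effects of age cannot be assessed.

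As background, CDK1 bound to a B-type cyclin forms M-phase promoting factor, whose activity drives the oocyte out of prophase arrest and is then held high during the arrest at MII. WEE2, an oocyte kinase, and PKMYT1, a membrane-bound kinase, keep the complex inactive by phosphorylating CDK1, and the CDC25 phosphatases remove those phosphates. In mouse oocytes CDC25B is the phosphatase known to be required for resumption of meiosis. The maturing oocyte is transcriptionally silent, and stored mRNAs are translated or degraded, in part through cytoplasmic polyadenylation elements (CPEs) near their 3′ ends.

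The annotated 3′ ends of the transcripts were therefore read from the genome (GRCm39, GENCODE M39). The last 150 bases of the 3′ untranslated region were searched on the transcript strand for a CPE, taken as TTTTAT or TTTTAAT, and for a polyadenylation signal, taken as AATAAA or ATTAAA. For Pkmyt1 this region is only 130 bases long, and all of it was searched. Of the 10 genes, 3 held a CPE, namely Ccnb1, Ccnb3 and Wee2, and 9 held a polyadenylation signal, Cdc25a being the exception. Among 9471 tested protein-coding genes with a 3′ untranslated region of at least 150 bases, 25.5% held the CPE letters and 82% the signal, so neither share set the 10 genes apart. A match of letters is a description and not a site in use. The stretches below are shown because Ccnb1, Ccnb2 and Wee2 were the mRNAs with the highest mean level, and Ccnb3 was the third gene with a CPE, with capitals marking the CPE and the signal.
Ccnb1 CPE, minus strand, chr13:100915278-100915307: ttgctgTTTTAATttatacatctgatatca
Ccnb1 signal, minus strand, chr13:100915164-100915193: ctttatgttgctAATAAAcatagttttcga
Wee2 CPE and signal, plus strand, chr6:40443700-40443729: taTTTTAATccagatcattgtaAATAAAga
Ccnb3 CPE, minus strand, chrX:6845941-6845970: tcttgaaattacTTTTATgaaagaagagaa
Ccnb2 signal, minus strand, chr9:70314975-70315004: gtattgaaggaaAATAAAgctattgatcta
The Ccnb1 CPE began 144 bases before the annotated end, and its signals began 115 and 24 bases before it. In Wee2 the CPEs began 46 and 18 bases before the end, on either side of a signal at 26 bases. Ccnb2 held a signal at 19 bases and no CPE of these letters in the window. For Cdk1, Cdc25a and Cdc25b the transcript length listed with the expression values (1253, 3632 and 3089 bases) differed from that of the canonical GENCODE transcript (4375, 4273 and 7694 bases), so the annotated end may not be the one that was quantified and no stretch is shown for them. The counts of CPEs and signals above include these genes at their annotated ends.

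Expression was measured by SMART-Seq RNA sequencing and deposited as FPKM, the number of sequenced fragments of a gene scaled to its transcript length and to the size of the library. In a bulk pool of this kind, fewer molecules per oocyte and a different make-up of the remaining RNA cannot be told apart. The length of the poly(A) tails of the mRNAs was not measured, and its part in the FPKM values was not tested. The spacing of the lowest FPKM values gave an estimated 16460000 to 19260000 fragments per IVM sample and 17940000 to 18160000 per IVO sample, which is an estimate because only 71.4% to 75.1% of those values came out as whole fragments. Groups were compared with limma on log2(FPKM + 1), two-sided, over the 18818 genes with a mean of at least 1 FPKM, and log2FC is IVO minus IVM throughout. The median log2FC of all tested genes was -0.30, and scaling the libraries by median ratios brought it to -0.04. At a log2FC of at least 1 in size and an adjusted p under 0.05, 3366 genes were lower in IVO and 114 higher. These counts were 2130 and 385 after median-ratio scaling, 1580 and 1097 in quantile-normalized data, and 1314 and 909 once the trend with gene length was removed. The libraries of the groups differed in summed FPKM, at 1826738 to 2111776 in IVM and 1560813 to 1643682 in IVO, and in the estimated mean fragment length, at 197 to 217 bases in IVM and 247 to 263 in IVO. The 12 oocyte markers summed to 15292 to 17838 FPKM in IVM and 15042 to 18576 in IVO, most of it Oosp1, and without Oosp1 to 3791 to 6592 and 3070 to 3418 FPKM. Of the 12, Zp1, Zp2, Zp3, Bmp15, Figla, Mos and Nlrp5 (7 genes) lay apart and lower in IVO, with Zp2 at 397.54 to 874.25 FPKM in IVM and 33.56 to 43.58 in IVO, and Dazl lay apart and higher. Of 16 cumulus and granulosa cell markers 12 were under 1 FPKM in every sample, with Amh listed at 0 in all, and their sum was 70.3 to 90.3 FPKM in IVM and 48.1 to 75.5 in IVO. Within that list Nr5a2 lay apart and lower in IVO, at 28.32 to 39.19 FPKM in IVM and 13.50 to 17.81 in IVO, and Tnfaip6, Has2 and Ptx3 lay apart and higher, all under 1 FPKM. The 6 oviduct markers summed to 2.93 to 3.16 FPKM in IVM and 3.40 to 5.76 in IVO, which lay apart. Most of that sum was Epcam, which itself overlapped, and without Epcam the sums overlapped at 0.21 to 0.32 and 0.30 to 0.53. Krt8 alone of that list lay apart, lower in IVO and under 1 FPKM. The 5 blood and immune markers summed to 1.73 to 2.45 in IVM and 2.92 to 21.6 in IVO, the highest in IVO3, and lay apart. Without Lyz2 these sums overlapped at 1.34 to 1.89 and 1.88 to 5.94. Lyz2 and Cd68 lay apart and higher in IVO. The part of these differences in the results was not tested.

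Among the 10 genes, Cdc25b was lower in IVO oocytes than in IVM oocytes and Cdk1 was higher, while the cyclins and inhibitory kinases passed no threshold with the FPKM as deposited. The level needed for a test was reached by 9 genes and not by Cdc25c. Cdc25b alone passed both the fold and the adjusted p threshold (1 of 9 lower, against 17.9% of all tested genes, and 0 of 9 higher, against 0.606%). With the adjusted p alone, 1 was lower (21.5% of all tested genes) and 1 higher, Cdk1 (1.87%). The values of the groups did not overlap for Cdk1, Ccnb1 and Ccna2, all higher in IVO (3 of the 9 tested, against 9.62% of all tested genes), and for Cdc25b, lower in IVO (1 of the 9, against 32.6%). They did not overlap for the untested Cdc25c either, also lower. At an unadjusted limma p under 0.05 the count was 2 of 9, Cdk1 and Cdc25b, beside 6950 of all 18818 tested genes. The limma fit gave a median log2FC of 0.09 over the 9 genes beside the -0.30 of all genes. The dot plot of FPKM by sample shows all 10 genes.

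**Figure D1:**
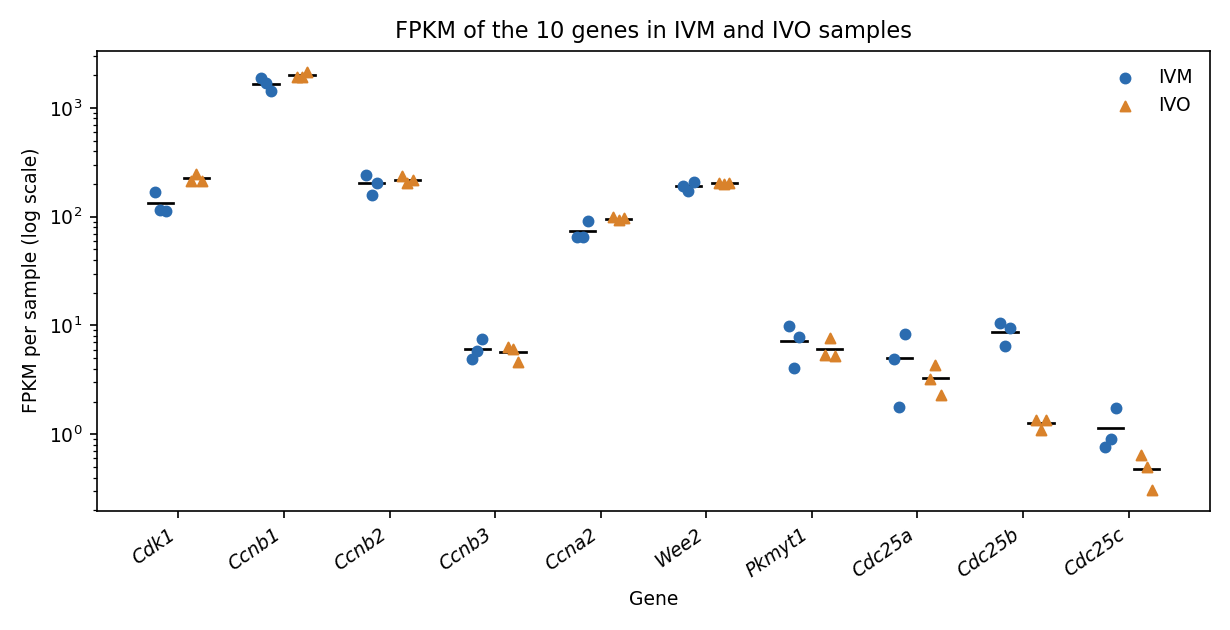
FPKM of each gene (log axis) in the 3 IVM samples (circles) and the 3 IVO samples (triangles), with a line at each group mean. Cdc25b lay at 6.42 to 10.52 FPKM in IVM and 1.10 to 1.35 in IVO, while Ccnb2, Ccnb3, Wee2, Pkmyt1 and Cdc25a overlapped between the groups.

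Cdk1 (ENSMUSG00000019942, chr10:69170976-69236595, minus strand), the kinase itself, was at 168.10, 115.63 and 113.12 FPKM in IVM1 to IVM3. In IVO1 to IVO3 it was at 212.10, 248.09 and 212.74 FPKM. Every IVO sample was above every IVM sample, with IVM1 closest to the IVO values. The means were 132 ± 31.0 and 224 ± 20.6 FPKM (SD, n = 3), a ratio of 1.70. The log2FC was 0.78 (SE 0.21, 95% interval 0.29 to 1.26, limma adjusted p = 0.0345), larger than that of 97.2% of tested genes and under the fold threshold. The adjusted p was under 0.05 in 1 of the 6 fits that left out a sample, the one without IVM1 (0.0215), and was 0.0698 to 0.113 in the others (without IVM2, IVM3, IVO1, IVO2 or IVO3). With median-ratio scaling the log2FC was 1.10 (limma adjusted p = 0.0184), past both thresholds. The annotated exons of Cdk1 share 49 of 5828 bases with Ank3 on the opposite strand, 0 of them in the canonical transcript. Ank3 was at 211.63, 172.13 and 153.47 FPKM in IVM and 146.62, 122.46 and 163.84 FPKM in IVO. Any part of Ank3 in the Cdk1 value was not tested.

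Ccnb1 (ENSMUSG00000041431, chr13:100915153-100923116, minus strand), the main activating cyclin of CDK1 in the oocyte, had the highest level of the 10 genes in every sample. Its values were 1881.47, 1687.20 and 1432.73 FPKM in IVM and 1908.96, 1913.15 and 2148.83 FPKM in IVO. The groups did not overlap, but IVM1 and IVO1 lay close together. The log2FC was 0.26 (SE 0.15, 95% interval -0.09 to 0.62, limma adjusted p = 0.256). The adjusted p was under 0.05 with quantile normalization (log2FC 0.59, limma adjusted p = 0.0168) and with the libraries scaled to the same sum (0.60, limma adjusted p = 0.0156).

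Ccnb2 (ENSMUSG00000032218, chr9:70314966-70328874, minus strand), a B-type cyclin that can partly stand in for cyclin B1, was at 243.87, 158.44 and 205.22 FPKM in IVM and 233.98, 202.83 and 218.78 FPKM in IVO. All IVO values fell within the IVM range. The log2FC was 0.13 (SE 0.20, 95% interval -0.34 to 0.60, limma adjusted p = 0.686). Ccnb3 (ENSMUSG00000051592, chrX:6845891-6907858, minus strand), a cyclin known for promoting anaphase of the first meiotic division, was low at 4.96, 5.88 and 7.58 FPKM in IVM and 6.37, 6.14 and 4.66 FPKM in IVO. Its groups overlapped, with a log2FC of -0.08 (SE 0.23, 95% interval -0.63 to 0.47, limma adjusted p = 0.84) whose sign turned with median-ratio scaling (0.19).

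Ccna2 (ENSMUSG00000027715, chr3:36619014-36626299, minus strand), the somatic A-type cyclin, was at 64.57, 65.28 and 91.89 FPKM in IVM and 98.40, 92.65 and 96.39 FPKM in IVO. IVM3 was just under the lowest IVO sample, and the other IVM samples were well below it. The log2FC was 0.39 (SE 0.20, 95% interval -0.08 to 0.85, limma adjusted p = 0.2), and 0.71 with median-ratio scaling (limma adjusted p = 0.0396). Ccna2 shares 714 of the 2965 bases of its canonical transcript with Exosc9 on the opposite strand, and the library kit does not mark strand, so reads there cannot be assigned to one gene. Exosc9 was at 16.80, 24.66 and 22.40 FPKM in IVM and 35.71, 37.81 and 28.79 FPKM in IVO, apart in the same direction, and its part in the Ccna2 value was not tested.

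**Figure D2:**
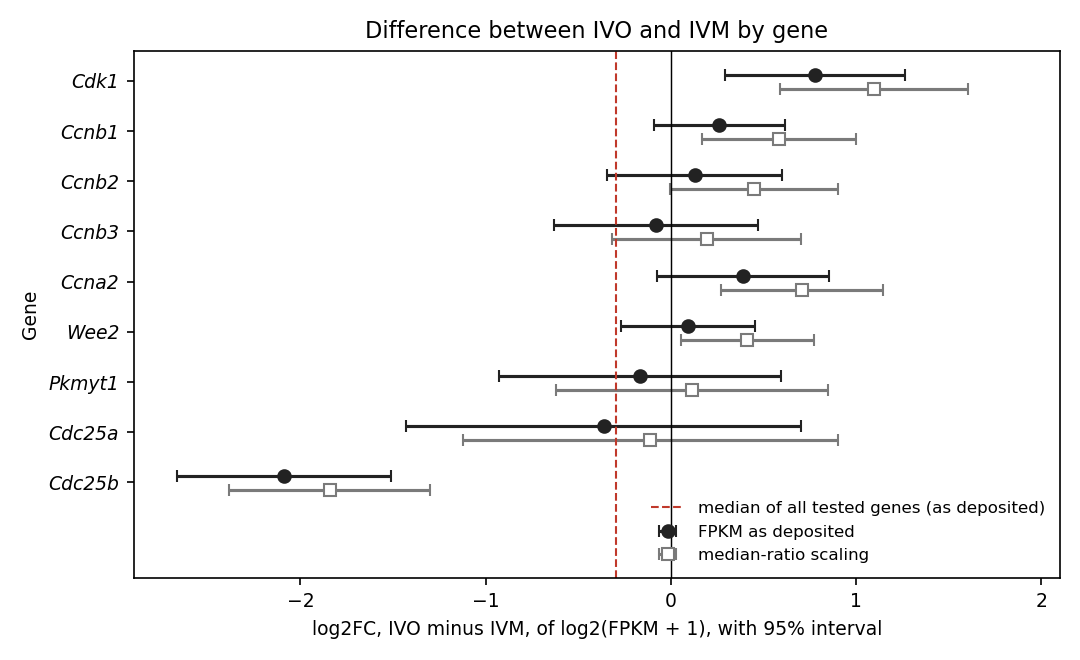
The log2FC (IVO minus IVM, on log2(FPKM + 1)) of the 9 tested genes with its 95% interval, for FPKM as deposited (filled circles) and after median-ratio scaling (open squares), with a dashed line at the median of all tested genes as deposited, -0.30. Cdc25b lay at -2.09 and -1.84 and Cdk1 at 0.78 and 1.10, and scaling moved every gene to the right.

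The mRNAs of both kinases that inhibit CDK1 overlapped between the groups. Wee2 (ENSMUSG00000037159, chr6:40412433-40443747, plus strand) was at 190.79, 172.00 and 206.37 FPKM in IVM and 202.25, 198.48 and 204.71 FPKM in IVO. The IVO samples were close to each other and lay within the IVM range. The log2FC was 0.09 (SE 0.15, 95% interval -0.27 to 0.46, limma adjusted p = 0.707), and quantile normalization gave 0.59 (limma adjusted p = 0.0426). Pkmyt1 (ENSMUSG00000023908, chr17:23945254-23955710, plus strand) was far lower, at 9.81, 4.08 and 7.80 FPKM in IVM and 5.39, 7.64 and 5.20 FPKM in IVO. IVM2 was the lowest of the 6 samples for Pkmyt1, and the log2FC was -0.17 (SE 0.32, 95% interval -0.93 to 0.60, limma adjusted p = 0.752), turning to 0.11 with median-ratio scaling. Its transcript overlaps that of Paqr4 on the opposite strand over 1252 of 2050 bases, and Paqr4 was at 1.08 FPKM or less in every sample.

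Of the phosphatases that activate CDK1, Cdc25b differed most between the groups. Cdc25b (ENSMUSG00000027330, chr2:131027866-131044913, plus strand) was at 10.52, 6.42 and 9.42 FPKM in IVM1 to IVM3. In IVO1 to IVO3 it was at 1.35, 1.10 and 1.35 FPKM. The lowest IVM sample was well above the highest IVO sample. The canonical transcript of Cdc25b shares 190 of 7694 bases with Spef1 on the opposite strand, so reads there cannot be assigned to a single gene. Spef1 was at 1.20, 0.53 and 2.04 FPKM in IVM and 0.50, 1.01 and 0.32 FPKM in IVO. Its part in the Cdc25b value was not tested. At the estimated depths the Cdc25b values corresponded to about 497, 357 and 516 fragments in IVM and about 69, 56 and 69 in IVO. The Cdc25b means were 8.79 ± 2.12 and 1.27 ± 0.144 FPKM (SD, n = 3), and the IVM mean was 6.94 times the IVO mean. On log2(FPKM + 1), which understates the change of a gene this low, the log2FC was -2.09 (SE 0.25, 95% interval -2.66 to -1.51, limma adjusted p = 0.0023), and 5.05% of all tested genes had a lower value. Both thresholds were passed under all 18 alternatives tried, with log2FC from -2.68 to -1.63 and limma adjusted p from 0.00139 to 0.0391. With a mean of 5.03 FPKM over the 6 samples, Cdc25b met the alternative filter of at least 5 FPKM only through its IVM values. That fit is therefore not separate support. Leaving out any single sample gave a log2FC of -2.275 to -1.958.

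Cdc25a (ENSMUSG00000032477, chr9:109704583-109723540, plus strand), a phosphatase that also acts in meiosis I, was at 4.96, 1.78 and 8.44 FPKM in IVM and 3.20, 4.29 and 2.31 FPKM in IVO. The IVM samples enclosed all IVO samples, and the spread within IVM was the widest, relative to its mean, of the 9 tested genes. The log2FC was -0.36 (SE 0.45, 95% interval -1.43 to 0.70, limma adjusted p = 0.609). Cdc25c (ENSMUSG00000044201), the third member of the phosphatase family, was at 0.77, 0.90 and 1.73 FPKM in IVM and 0.64, 0.50 and 0.31 FPKM in IVO. Its mean over the 6 samples, 0.808 FPKM, kept it out of the test, although every IVO value was below every IVM value. Its canonical transcript shares 329 of 1974 bases with 2010110K18Rik on the opposite strand, which was at 1.62 to 2.85 FPKM in IVM and 1.5 to 2.23 FPKM in IVO, so reads there cannot be assigned to one gene. These levels corresponded to about 22, 30 and 57 fragments in IVM and about 20, 15 and 9 in IVO, and with no filter on low values the log2FC was -0.50 (limma adjusted p = 0.214). The phosphatases thus differed in what was measured, with Cdc25b lower in IVO, Cdc25a overlapping and Cdc25c too low for the test, and the differences between them were not tested.

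On the FPKM scale, the level in IVM fell in the order Ccnb1, Ccnb2, Wee2, Cdk1, Ccna2, Cdc25b, Pkmyt1, Ccnb3, Cdc25a and Cdc25c. Ccnb2 and Wee2 overlapped in IVM, as did each pair of neighbours from Cdc25b to Cdc25a, and the other neighbours were apart. In IVO the order was Ccnb1, Cdk1, Ccnb2, Wee2, Ccna2, Pkmyt1, Ccnb3, Cdc25a, Cdc25b and Cdc25c. There Cdk1 overlapped with Ccnb2, Ccnb2 with Wee2, and Pkmyt1 with Ccnb3, and the other neighbours were apart. Cdc25b, the phosphatase with the highest mean in IVM, was below Cdc25a in IVO. The Cdk1, Cdc25a and Cdc25b levels rest on listed lengths that differ from the canonical transcript, so their place in the order depends on the annotation. Reads of near-identical copies cannot be fully separated, and among the other listed loci assigned to the same orthologs the highest was Gm12856, assigned to cyclin B1, at 0.49 to 1.15 FPKM.

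Ratios within a sample do not change with the scaling of its library. The Wee2 to Cdc25b ratio, an inhibitory kinase over an activating phosphatase, was 18.1, 26.8 and 21.9 in IVM and 149.8, 180.4 and 151.6 in IVO. All IVO samples were above all IVM samples, with means of 22.3 ± 4.34 and 160.6 ± 17.2 (SD, n = 3), and the Wee2 values themselves overlapped. The Ccnb1 to Cdk1 ratio was 11.2, 14.6 and 12.7 in IVM and 9.0, 7.71 and 10.1 in IVO. The groups were again apart, here with IVO lower, at 12.8 ± 1.70 against 8.94 ± 1.20 (SD, n = 3). The Ccnb1 to Ccnb2 ratio, between the abundant B-type cyclins, was 7.72, 10.6 and 6.98 in IVM and 8.16, 9.43 and 9.82 in IVO, and its groups overlapped. These ratios are given as descriptions, with no p.

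**Figure D3:**
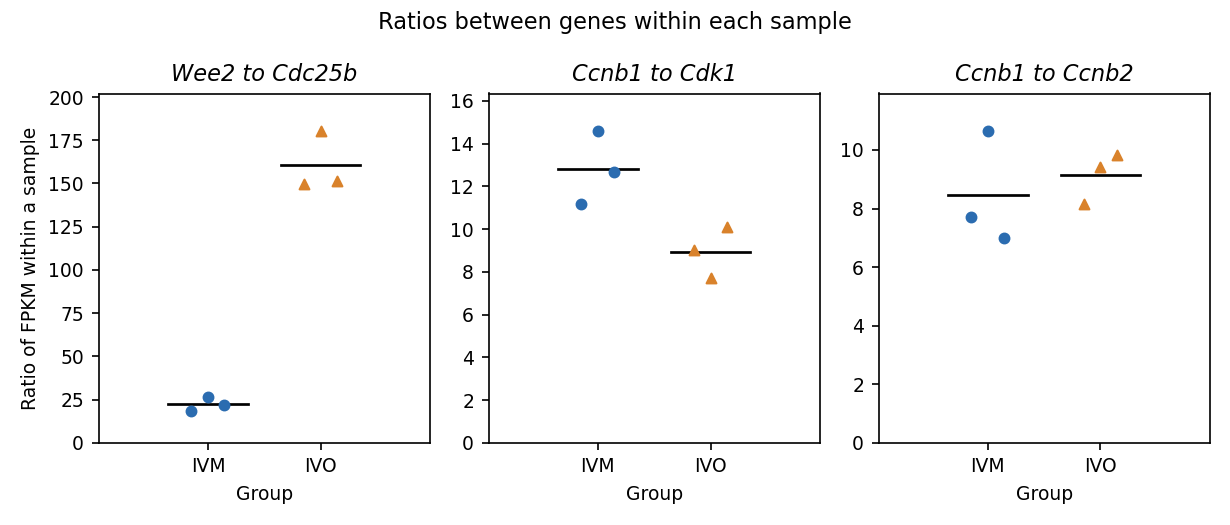
FPKM ratios within each sample (linear axes from 0), with 3 IVM samples (circles), 3 IVO samples (triangles) and a line at each group mean. The Wee2 to Cdc25b ratio was 18.1 to 26.8 in IVM and 149.8 to 180.4 in IVO, the Ccnb1 to Cdk1 ratio was lower in IVO and the Ccnb1 to Ccnb2 ratio overlapped.

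The wider network of CDK1 was described with a list of 48 genes, of which 41 were tested and 7 were under the expression filter. Past both thresholds 2 of 41 were lower in IVO and 0 were higher, beside 17.9% and 0.606% of all tested genes. With the adjusted p alone 3 of 41 were lower and 3 higher, beside 21.5% and 1.87% of all tested genes. The median log2FC of the 41 genes was -0.12, beside -0.30 for all tested genes and 0.19 with median-ratio scaling, and 7 of the 41 genes had groups that lay apart and lower in IVO and 6 apart and higher, beside 32.6% and 9.62% of all tested genes. With the adjusted p alone, 1 of 9 tested genes was higher among the CDK-activating kinase, Cks subunits and other CDK partners, 1 of 7 among the upstream kinases and 1 of 6 among the 14-3-3 proteins, beside 1.87% of all tested genes, each count being a single gene. In the same way 1 of 10 was lower in the Greatwall and PP2A-B55 group, 1 of 5 among other phosphatases that oppose CDK1 and 1 of 4 among regulators of cyclin destruction, beside 21.5% of all tested genes, a share near or above theirs. The median log2FC of these groups ran from -0.35 for the other phosphatases to 0.10 for the 14-3-3 proteins. The plot of the wider network shows the genes by group.

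The genes past both thresholds were Fzr1 and Ensa. Fzr1, which encodes the CDH1 activator of the ubiquitin ligase that destroys cyclin B during prophase arrest, was at 11.34, 3.95 and 13.44 FPKM in IVM and 1.91, 2.90 and 2.04 FPKM in IVO. Its log2FC was -1.56 (SE 0.42, limma adjusted p = 0.0351), with IVM2 nearest to the IVO samples. Ensa, an inhibitor of the CDK1-opposing phosphatase PP2A-B55 once phosphorylated by Greatwall kinase, was at 4.77, 2.75 and 4.21 FPKM in IVM and 1.64, 1.56 and 0.96 FPKM in IVO. Its log2FC was -1.03 (SE 0.27, limma adjusted p = 0.0328), on about 72, 49 and 74 fragments in IVM and about 26, 25 and 15 in IVO. Arpp19 of the same group, named after its values were seen, was far higher and passed no threshold. It was at 121.26, 115.67 and 101.94 FPKM in IVM and 85.83, 96.68 and 88.41 FPKM in IVO (log2FC -0.32, limma adjusted p = 0.211). For Fzr1 and Ensa the adjusted p was under 0.05 without IVM2 (limma adjusted p = 0.01 for Fzr1 and 0.033 for Ensa) and 0.05 or more without any other single sample (0.0619 to 0.107 for Fzr1 and 0.0652 to 0.0977 for Ensa). After median-ratio scaling it was 0.0599 for Fzr1 and 0.0641 for Ensa.

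A further 4 genes, named after their values were seen, passed the adjusted p but not the fold. Chek1, the checkpoint kinase that inhibits CDC25 phosphatases, was at 468.59, 470.30 and 418.59 FPKM in IVM and 754.23, 788.09 and 742.13 FPKM in IVO (log2FC 0.75, limma adjusted p = 0.00988). Cks2, a small subunit that binds CDK1, was at 8838.10, 8551.40 and 6350.45 FPKM in IVM and 11870.21, 10421.49 and 13233.44 FPKM in IVO (log2FC 0.59, limma adjusted p = 0.0428). Ywhaz, a 14-3-3 protein of the family that binds phosphorylated CDC25, was at 246.72 to 266.36 FPKM in IVM and 355.30 to 389.86 FPKM in IVO (log2FC 0.53, limma adjusted p = 0.0364). Ppp1cc, a catalytic subunit of protein phosphatase 1, lay the other way, at 58.03 to 78.51 FPKM in IVM and 33.86 to 36.90 FPKM in IVO (log2FC -0.96, limma adjusted p = 0.0123). For all 4 genes the groups did not overlap. Leaving out any one of the 6 samples took Cks2 (limma adjusted p 0.0617 to 0.119) and Ywhaz (0.0513 to 0.132) to 0.05 or more, while Chek1 (0.0232 to 0.0446) and Ppp1cc (0.0158 to 0.0414) stayed under it. Ppp1cc was at 0.0973 with quantile normalization and 0.0853 with the libraries scaled to the same sum (limma adjusted p).

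**Figure D4:**
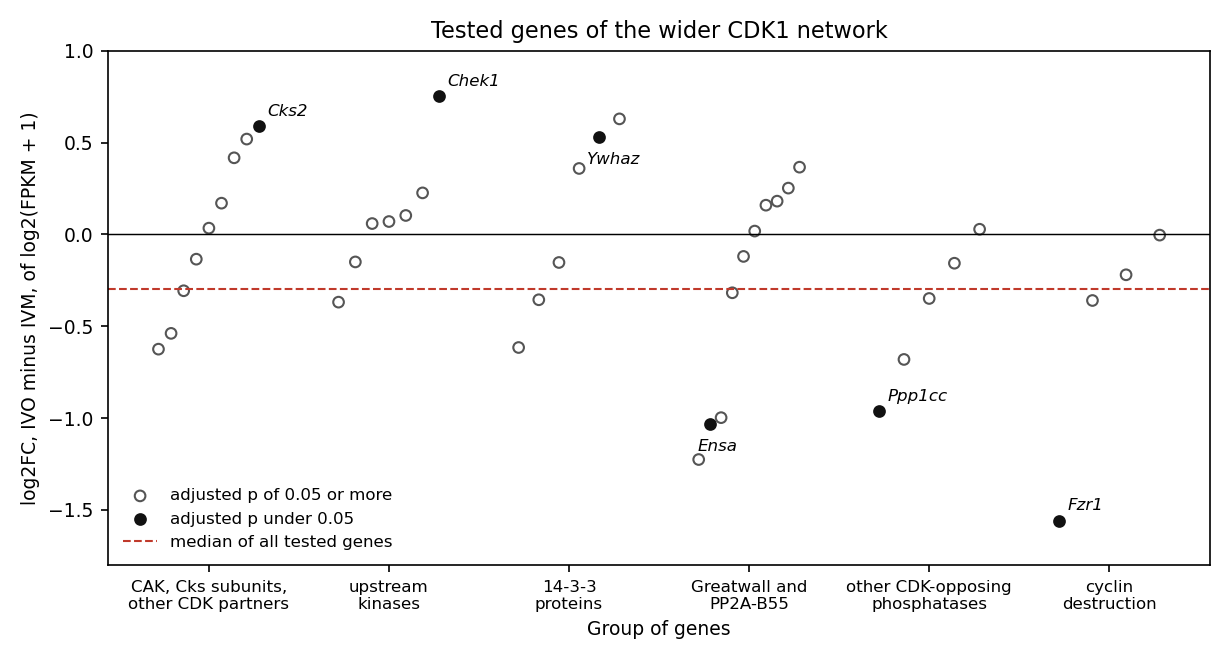
The log2FC (IVO minus IVM, on log2(FPKM + 1)) of the 41 tested genes of the wider CDK1 network in 6 groups, with filled points for an adjusted p under 0.05 and a dashed line at the median of all tested genes, -0.30. Cks2, Chek1 and Ywhaz lay above 0 and Ensa, Ppp1cc and Fzr1 below it, with Fzr1 lowest at -1.56. CAK is the CDK-activating kinase.

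For the 3 genes with the highest mean FPKM, the genes with the most similar pattern were sought among 6794 Ensembl genes of at least 10 FPKM, by Pearson r of log2(FPKM + 1) over the 6 samples. Points share a library and a group, so r is a description. Ccnb1 was followed most closely by Sc5d (r = 0.995), 3110001I22Rik (0.989) and Nat2 (0.975). Sc5d was at 129.72, 108.02 and 85.54 FPKM in IVM and 131.98, 128.73 and 148.19 FPKM in IVO, with its lowest value in IVM3 and its highest in IVO3, as for Ccnb1. Ccnb2 was followed by Gm5900 (r = 0.987), Chd8 (0.982) and Tmem237 (0.981), all lowest in IVM2. Wee2 was followed by N4bp1 (r = 0.998), Ing3 (0.995) and Sema4d (0.989), of which N4bp1 was at 12.67, 9.04 and 17.21 FPKM in IVM and 15.52, 14.70 and 16.56 FPKM in IVO. IVM2 was also the lowest IVM sample for 5 of the 10 genes, namely Ccnb2, Wee2, Pkmyt1, Cdc25a and Cdc25b.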

How the data were processed

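Libraries were made with the SMART-Seq v4 kit and sequenced as read pairs. The authors aligned them to GRCm39 with HISAT2 2.1.0, quantified genes with RSEM 1.3.3 and deposited FPKM per gene and sample, beside group means that were not used, and the annotation release is not given in the sources used here. The deposited FPKM were compared with limma 3.58.1 in R 4.3.3 (lmFit, eBayes with trend) on log2(FPKM + 1), for genes with a mean of at least 1 FPKM over the 6 samples, with Benjamini-Hochberg adjustment over 18818 genes. Counts were not used here, so no count test was run. Replicates are separate pools of oocytes. The script was tested on simulated data.

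The 10 genes and the gene and marker lists were chosen with earlier results of these data known. Named were the 10 genes, genes of the wider network past both thresholds, and for the 3 most abundant genes the 3 most alike in pattern. Alternatives varied the pseudocount, filter, scaling, variance trend, length correction, gene set and samples. GENCODE M39 gave positions and 3′ ends.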

Additional observations from a re-analysis of the deposited data

How the results depend on the processing

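Depth was only estimated and 3 samples a group limit every interval. The Cdc25b difference passed both thresholds under all 18 alternatives, among them the filter of at least 5 FPKM, which it met only through its IVM values. The Cdk1 adjusted p was 0.05 or more under 9 of 18, with no filter on low values (0.0558), without the variance trend (0.0516), with a replicate block (0.0811), with the length trend removed and the block (0.0594) and in 5 of 6 fits leaving out a sample (limma adjusted p, log2FC 0.68 to 0.82, against 0.96 in the fit without IVM1, which kept the call). With the length trend removed and the block, Ppp1cc was at 0.118 and Chek1 at 0.0515 (limma adjusted p). Whether same-numbered samples were paired is not given in the sources used here. The correlations of same-numbered deviations were -0.0618, -0.0176 and -0.107, which cannot settle it with 3 samples a group. The block gave 2991 calls over all genes instead of 3480. Calls over all genes were fewest, 977, with the length trend removed and the block, against 2223 with the length trend removed alone. Of the 10 genes, those higher past both thresholds numbered 0 as reported and 1 with the same summed FPKM, the length trend removed, quantile normalization or median-ratio scaling. With the adjusted p alone, 1 was higher as reported, 0 with no filter, without the variance trend, or with the block with or without the length trend removed, 2 with median-ratio scaling, the same sum, the length trend removed, or Ensembl genes scaled by median ratios, 4 under quantile normalization and 0 to 1 leaving out a sample. The all-gene counts moved as well. Of all 18818 tested genes, 351 were higher by this rule as reported, 289 without the variance trend and 118 with the block. They numbered 1344 with median-ratio scaling, 1083 with the same sum and 2787 under quantile normalization. Removing the length trend gave 2053, and 353 with the block. Without the filter 255 of 32852 were higher, and 969 of 13154 for Ensembl genes scaled by median ratios. Leaving out a sample gave from 109 of 18881 (without IVO1) to 289 of 18601 (without IVM3). Of the wider network, 2 were lower as reported, 0 with no filter, the same sum, quantile normalization, median-ratio scaling, the block, or the length trend removed with or without the block, 1 with a mean FPKM of at least 5 or Ensembl genes with median-ratio scaling, and 0 to 3 leaving out a sample. With the filter of at least 5 FPKM that gene was Fzr1, at 2.90 FPKM or less in every IVO sample. Fzr1 met this filter only through its IVM values, so that fit is not separate support. Ensa, at a mean of 2.65 FPKM over the 6 samples, was not tested under this filter. Of that network 0 were higher as reported, 1 with median-ratio scaling, the same sum, or the length trend removed with the block, 2 with the length trend removed and 3 with quantile normalization. Past both thresholds the shares of all tested genes, lower and higher, were 17.9% and 0.606% as reported. They were 11.3% and 2.05% with median-ratio scaling, 11.3% and 2.11% with the same sum, and 8.4% and 5.83% with quantile normalization. Removing the length trend gave 6.98% and 4.83%, and 3.33% and 1.86% with the block. The block alone gave 15.4% and 0.489%, and no filter gave 7.75% and 0.247%. The mean log2 difference in the Wee2 to Cdc25b ratio was 2.86, 2.18 on FPKM + 1 and 2.72 to 3.005 leaving out a sample.

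Among these genes, signs turned only for those whose groups overlapped. Ccnb3 had a log2FC of 0.19 with median-ratio scaling, 0.41 under quantile normalization, 0.21 with the same sum, 0.16 with the length trend removed with or without the block, 0.10 for Ensembl genes scaled by median ratios, and -0.20 to 0.061 leaving out a sample. Pkmyt1 had 0.11, 0.32, 0.12, 0.14 and 0.024 under the same alternatives, and -0.48 to 0.065 leaving out a sample. Cdc25a had 0.10 with quantile normalization and -0.84 to 0.042 leaving out a sample. Ccnb2 ranged from -0.036 to 0.27 leaving out a sample.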
